A study of Bos taurus with 8 samples.

Results

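The miRNAs of white blood cells and platelets were examined in cell-free serum and in serum exosomes of cattle. The 7 mature miRNAs bta-miR-142-3p, bta-miR-142-5p, bta-miR-146a, bta-miR-146b, bta-miR-150, bta-miR-155 and bta-miR-223 were chosen by name, from what is known of the cells that make them. All 7 were listed among the 534 bovine miRNAs of every library and all 7 were among the 365 miRNAs with more than 1 RPM (reads of a miRNA, scaled to 1000000 miRNA reads of the library) in at least 2 libraries of a sample type. Blood was taken from 4 healthy lactating Holstein cows, and each cow gave 1 small RNA library from serum and 1 from the exosomes isolated from the same serum. The sera group therefore held 4 libraries of whole serum and the exosome group 4 libraries of the vesicle fraction of that serum. The blood was clotted before the serum was spun off, the exosomes were collected with an isolation kit from a larger volume of serum, and their RNA was extracted with a kit of another make. The sample type and the extraction therefore cannot be told apart.

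MiRNAs are short RNAs that pair through their seed, near the 5′ end, with messenger RNAs and reduce their translation and stability. The miR-142 hairpin is active in nearly all cells of the blood lineage, miR-150 is abundant in mature B, T and natural killer lymphocytes, and miR-223 is abundant in neutrophils, monocytes and platelets. MiR-146a, miR-146b and miR-155 are raised in white cells by inflammatory signals, in the case of miR-146a and miR-155 through NF-κB. MiR-146a and miR-146b dampen NF-κB signalling through TRAF6 and IRAK1. White cells, platelets and red cells all release miRNAs into serum, within vesicles or bound to proteins, so the level of a miRNA in serum does not name the cell it came from. In such bulk samples, release from fewer cells and less miRNA released per cell cannot be told apart.

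Depth ranged from 264769 to 590162 miRNA reads among the sera and from 60682 to 157710 among the exosome libraries, and 1 read made 1.69 to 3.78 RPM of a serum but 6.34 to 16.5 RPM of an exosome library. A count of 0 would have allowed up to 3 reads, or 19.0 to 49.4 RPM in exosomes, and no member was at 0 in any library. Intervals from reads cover counting error only, because PCR copies molecules before they are read. The libraries of cow 1 stood apart from the others through the muscle miRNA miR-133a, at 21761 RPM in its serum and 25279 RPM in its exosomes against 156 to 323 RPM in the other 6 libraries. Results are therefore also given without cow 1 where its libraries moved a call or a direction.

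Together the 7 miRNAs made up 3.61% ± 0.392 of a serum's miRNA reads and 3.69% ± 0.651 of those of an exosome library. Errors are SD over the 4 cows throughout (n = 4). Serum by serum, for cows 1 to 4, their summed share was 3.72%, 3.99%, 3.66% and 3.06%, and for the exosomes it was 4.62%, 3.68%, 3.30% and 3.18%. The ranges overlapped, and in 2 of 4 cows the exosomes had the larger share. MiR-142-5p alone made up 58.2% ± 2.93 of this sum in sera and 60.5% ± 5.07 in exosomes, followed by miR-150 with 27.9% ± 4.03 and 31.2% ± 6.71. MiR-223 made up 9.21% ± 2.27 in sera and 5.08% ± 1.81 in exosomes, and the other 4 miRNAs made up the rest. The summed share therefore describes mainly miR-142-5p and miR-150, and the inflammation-induced members hardly enter it.

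By mean RPM the order in sera was miR-142-5p, miR-150, miR-223, miR-142-3p, miR-146a, miR-155 and miR-146b. They were ranked 12, 25, 47, 78, 113, 134 and 142 among all listed miRNAs. In exosomes the same order held, with ranks 11, 18, 54, 78, 134, 135 and 200. From miR-142-5p down to miR-146a, neighbours in this order did not overlap between libraries in either sample type. MiR-146a and miR-155 overlapped in both sample types, and miR-155 and miR-146b overlapped in sera only. Mature miRNAs are of nearly one length, so RPM can be set side by side, but adaptor ligation favours some sequences over others and the order of levels is that of reads.

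**Figure D1:**
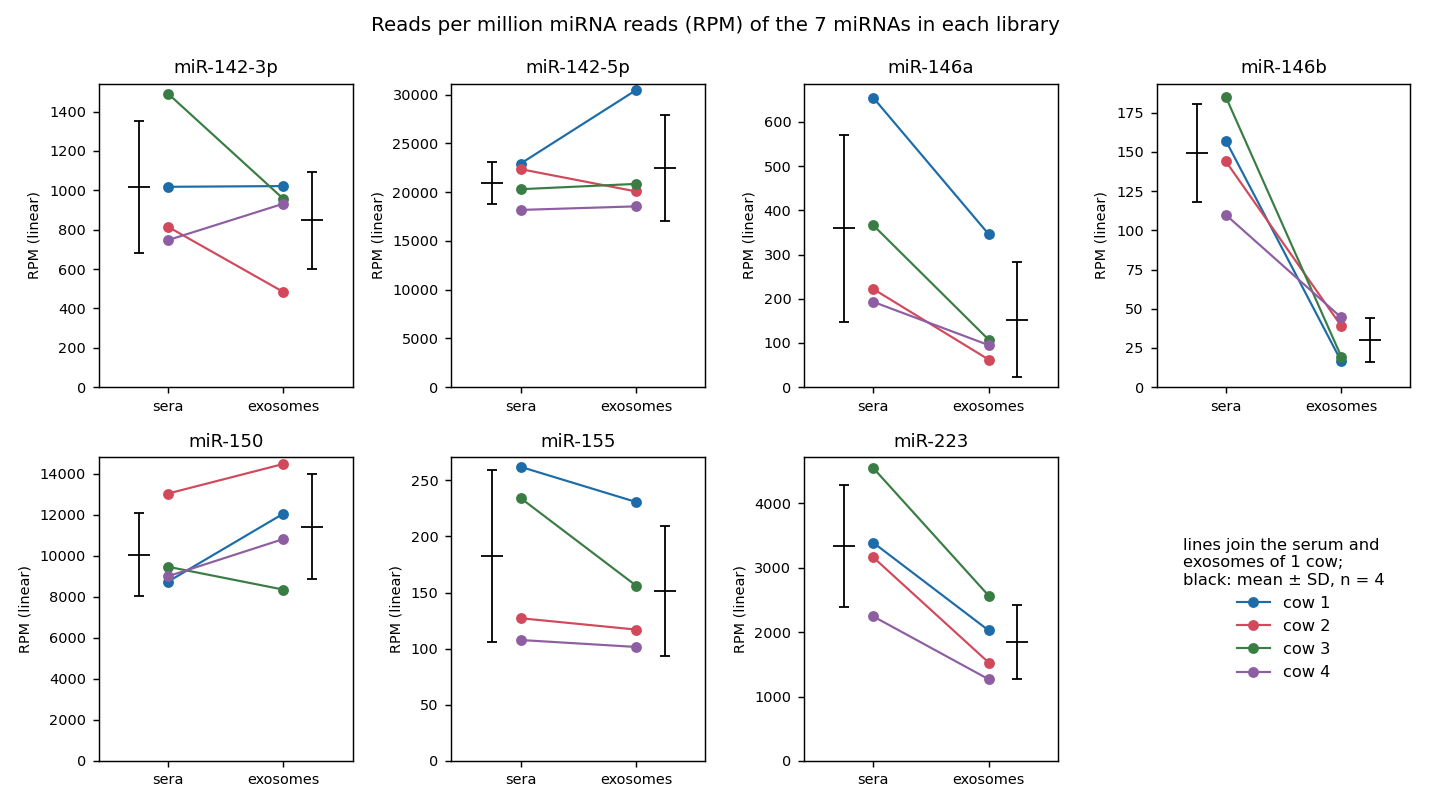
RPM (share of the miRNA reads of a library, linear axes from 0) of the 7 miRNAs in sera and exosomes, with a line joining the libraries of 1 cow and the mean ± SD of 4 libraries in black. MiR-146b is the member whose sera (109.9 to 185 RPM) and exosomes (16.5 to 44.4 RPM) did not overlap, and miR-223 was lower in the exosomes of every cow.

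The comparison of sera with exosomes asks which of these miRNAs are represented differently in the vesicle fraction and in whole serum. MiR-146b was the member that passed the test, with a level about 5 times higher in sera. MiR-146a and miR-223 also had more RPM in the serum than in the exosomes of every cow, without passing both thresholds in this test, which ignores the pairing by cow. With the cow as a block, miR-146a passed both thresholds by limma and by edgeR, in fits that called 9.59% and 7.12% of all 365 miRNAs. MiR-223 then passed the limit on FDR but not that on fold change. MiR-142-3p, miR-142-5p, miR-150 and miR-155 differed by less than the spread between cows. The test was limma on log2(RPM + 1) over the 365 miRNAs, with calls at a log2 fold change (FC, sera over exosomes) over 1 or under -1 and a false discovery rate (FDR, Benjamini-Hochberg over all 365) under 0.05. It called 1 of the 7 members, miR-146b, against 4.38% of all 365 miRNAs. Called higher in sera were 3.01% of the 365 miRNAs, and called higher in exosomes 1.37%. Of all calls, 68.8% were therefore higher in sera by limma, against 42.9% by edgeR with TMM scaling. At an unadjusted p under 0.05, 3 of the 7 members were past the limit, namely miR-146b, miR-146a and miR-223, against 25.8% of all 365 miRNAs. More RPM in sera in 4 of 4 cows was found for 4 of the 7 members (miR-146a, miR-146b, miR-155 and miR-223) and for 30.7% of all 365 miRNAs. More RPM in exosomes in 4 of 4 cows was found for 0 of the 7 members and for 4.11% of all.

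MiR-146b, a brake on Toll-like receptor signalling, had 157, 144, 185 and 109.9 RPM in the sera of cows 1 to 4. In their exosomes it had 16.5, 39.0, 19.5 and 44.4 RPM. Every serum was above every exosome library, which held for 11.8% of the 365 miRNAs, while the reverse held for 2.47% of them and for 0 members. The means were 149 ± 31.2 RPM in sera and 29.9 ± 13.9 RPM in exosomes, a log2 FC of 2.38 (standard error 0.52, limma FDR = 0.0125). The exosome values rested on 1, 5, 2 and 7 reads in cows 1 to 4, against 42 to 85 reads in sera. Within cows the fold of sera over exosomes was 9.53 (95% exact counting interval 1.62 to 386) in cow 1, 3.69 (1.52 to 11.7) in cow 2, 9.49 (2.49 to 80.5) in cow 3 and 2.48 (1.12 to 6.48) in cow 4. All 4 intervals lay above 1, and they overlapped each other. On recovered reads, edgeR gave miR-146b a log2 FC of 1.95 (quasi-likelihood test, FDR = 0.0196), and it called 3.84% of the 365 miRNAs and 1 of the members. The call was lost without the serum of cow 2 (FDR = 0.0504 by limma) and without the serum of cow 3 (FDR = 0.0513 by limma), with log2 FC of 2.38 and 2.26. It was kept without both libraries of cow 1, with a log2 FC of 2.11 (limma FDR = 0.0459), when 4.51% of the miRNAs tested were called.

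MiR-146a shares its seed with miR-146b and is made from a separate gene. It had 655, 222, 366 and 193 RPM in the 4 sera, from cow 1 to cow 4, against 346, 62.4, 107.4 and 95.1 RPM in the matching exosomes. Cow 1 had the highest level in both sample types, and its exosomes were above the sera of cows 2 and 4, so the groups overlapped. The means were 359 ± 211 RPM in sera and 153 ± 130.3 RPM in exosomes. The log2 FC was 1.38 (standard error 0.52) with a limma FDR of 0.13, so miR-146a was not called. Within cows the fold of sera over exosomes was 1.89, 3.56, 3.41 and 2.03, and the 95% counting interval lay above 1 in 4 of 4 cows. With the cow as a replicate block, which removes differences between cows that both libraries share, miR-146a was past both thresholds by limma (log2 FC of 1.38, FDR = 3.9e-06) and by edgeR (log2 FC of 1.14, FDR = 5.2e-05). The fit with the block called 2 of the 7 members by either tool, against 9.59% of all 365 miRNAs by limma and 7.12% by edgeR. With 4 cows, an FDR this small rests mainly on variance pooled over miRNAs. Without the exosomes of cow 1, miR-146a was also past both thresholds without the block (log2 FC of 1.88, limma FDR = 0.0147), and without both libraries of cow 1 its log2 FC was 1.53 with an FDR of 0.0562.

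MiR-223, a myeloid and platelet miRNA that restrains neutrophil production, had 3391, 3164, 4551 and 2245 RPM in the sera of cows 1 to 4. In their exosomes it had 2027, 1528, 2567 and 1268 RPM. Cow 3 was highest and cow 4 lowest in both sample types, with the same order of the 4 cows, and the exosomes of cow 3 were above the serum of cow 4. The means were 3338 ± 949 RPM in sera and 1848 ± 574 RPM in exosomes. The log2 FC of 0.86 (standard error 0.26, 95% interval 0.30 to 1.42) was inside the limit of 1, with a limma FDR of 0.0705. Within cows the fold of sera over exosomes was 1.67, 2.07, 1.77 and 1.77, the narrowest range of these folds among the 3 members with the largest log2 FC. In the paired fits, with each cow as a block, its FDR was 1.7e-10 (limma) and 3.0e-05 (edgeR, log2 FC of 0.65), so that miR-223 passed the limit on FDR but not that on fold change. With the block, an FDR under 0.05 was found for 26.3% of the 365 miRNAs and 3 members by limma, and for 21.6% and 4 members by edgeR. Without the exosomes of cow 3, miR-223 was past both thresholds (log2 FC of 1.04, limma FDR = 0.0335).

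MiR-155, made from the BIC transcript in activated lymphocytes and macrophages, had 262, 127, 234 and 107.7 RPM in the sera of cows 1 to 4. In their exosomes it had 231, 117, 156 and 101.5 RPM, from 14 to 16 reads per library. The order of the cows was the same in both sample types, with cow 1 highest and cow 4 lowest. The means were 183 ± 76.7 RPM and 151 ± 57.7 RPM, with a log2 FC of 0.24 (95% interval -0.64 to 1.12, limma FDR = 0.767). All 4 within-cow counting intervals included 1, so a difference was not detectable at this depth, and the interval reaches beyond the limit of 1.

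MiR-150, which represses the transcription factor MYB in lymphocytes, had 8743, 13042, 9472 and 9005 RPM in the sera of cows 1 to 4. In their exosomes it had 12063, 14487, 8356 and 10824 RPM. Cow 2 was highest in both sample types, and the groups overlapped. The means were 10066 ± 2007 RPM in sera and 11433 ± 2554 RPM in exosomes, with a log2 FC of -0.18 (95% interval -0.64 to 0.29, limma FDR = 0.669). The fold of sera over exosomes was 0.725, 0.900, 1.13 and 0.832 within cows 1 to 4, each beyond counting error, so cow 3 went the other way from the rest. With the block, edgeR gave it an FDR of 0.00995 at a log2 FC of -0.38, inside the fold change limit, and limma an FDR of 0.28.

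Both arms of the miR-142 hairpin were measured. MiR-142-5p had 22932, 22367, 20308 and 18181 RPM in the 4 sera, from cow 1 to cow 4, against 30470, 20078, 20851 and 18547 RPM in the matching exosomes. Apart from the exosomes of cow 1, all libraries lay between 18181 and 22932 RPM. The means were 20947 ± 2161 and 22487 ± 5408 RPM, with a log2 FC of -0.08 (95% interval -0.53 to 0.37, limma FDR = 0.845). Without the exosomes of cow 1 the log2 FC turned to 0.075, and without both libraries of cow 1 to 0.030. MiR-142-3p had 1018, 815, 1492 and 747 RPM in sera and 1022, 483, 957 and 932 RPM in exosomes. The groups overlapped, with means of 1018 ± 336 and 848 ± 246 RPM and a log2 FC of 0.27 (95% interval -0.35 to 0.89, limma FDR = 0.64). On the RPM scale, with all 8 libraries, the intervals of both arms exclude the fold change limit of 1 in either direction. For miR-142-3p this did not hold in most fits with fewer libraries. Its upper end was 1.07 without the serum of cow 2, 1.11 without that of cow 4 and 1.14 without both libraries of cow 1. Without the exosomes of cow 1, 3 or 4 it was 1.04, 1.03 and 1.03. It stayed under 1 without the serum of cow 1 (0.98) or cow 3 (0.68) or the exosomes of cow 2 (0.60). With RPM over all sequences that entered the analysis the intervals were -1.54 to -0.042 for miR-142-5p and -1.20 to 0.33 for miR-142-3p, and both included -1.

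**Figure D2:**
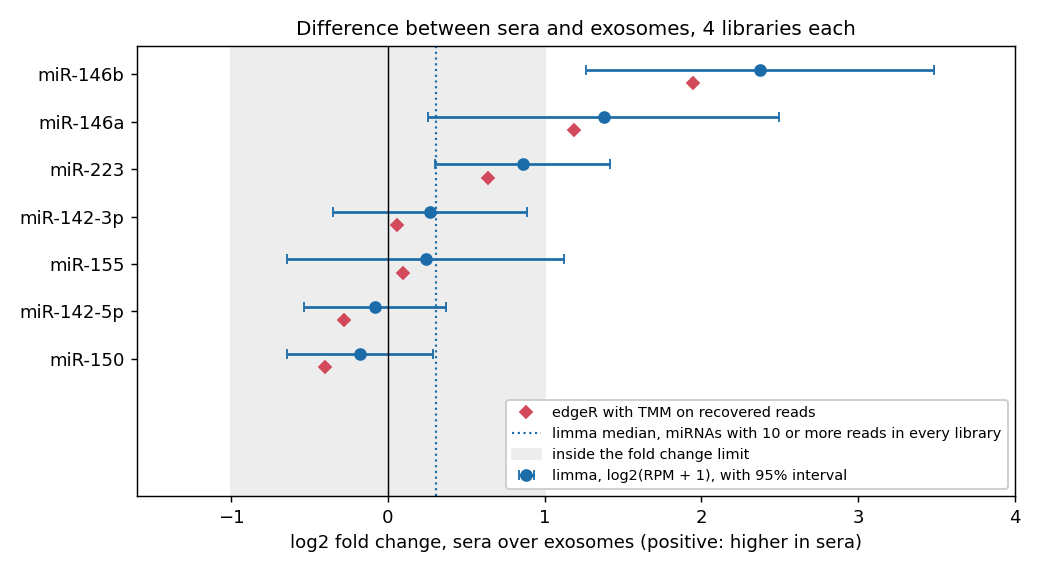
Log2 fold change of sera over exosomes for each miRNA, by limma on log2(RPM + 1) with its 95% interval (circles and bars) and by edgeR with TMM on recovered reads (diamonds). MiR-146b (2.38 by limma) lies beyond the limit of 1 with its whole interval, the interval of miR-146a (log2 FC of 1.38) crosses that limit, and the other 5 estimates lie within it.

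These fold changes depend on the scale. An RPM value is a share, so it is lower where other miRNAs take more reads. Over the 128 miRNAs that had 10 reads or more in each of the 8 libraries, the median log2 FC was 0.31 in limma, against 0.11 when edgeR's TMM scaling was used. Relative to this limma median, the log2 FC was 2.07 for miR-146b, 1.07 for miR-146a, 0.55 for miR-223, -0.042 for miR-142-3p, -0.068 for miR-155, -0.39 for miR-142-5p and -0.48 for miR-150. MiR-142-3p and miR-155 therefore lay at the middle of the abundant miRNAs, while miR-142-5p and miR-150 lay on the exosome side of it. When RPM was computed over all sequences that entered the authors' analysis, not over miRNA reads, miR-142-3p and miR-155 turned to log2 FC of -0.44 and -0.43 (-0.061 and -0.029 by DESeq2), and no member was called by limma, against 1.64% of the 365 miRNAs. At an unadjusted p under 0.05 were then 3 members, against 13.7% of all. These were miR-146b, and on the exosome side miR-142-5p (log2 FC of -0.79) and miR-150 (-0.88), whereas miR-146a (0.63) and miR-223 (0.15) were not past it. On this scale miR-146b had a log2 FC of 1.37 (limma FDR = 0.294), at rank 2 from the top of the 365 miRNAs. This rank depended on the setting. For RPM over miRNA reads, miR-146b ranked 71, 19 and 2 with pseudocounts of 0.1, 1 and 10. The quasi-likelihood fit of edgeR, scaled by TMM, placed it at 44.

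Ratios of members within a library do not depend on the scaling, and 3 were tested with exact two-sided permutation tests over 70 assignments, of which the smallest possible p is 0.0286. After adjustment over the 3 ratios, 1 ratio alone could not pass 0.05 even at that smallest p, so an adjusted p above 0.05 says little. The ratio of miR-150 to miR-223, a lymphocyte miRNA against a myeloid one, was 2.58, 4.12, 2.08 and 4.01 in serum, from cow 1 to cow 4, against 5.95, 9.48, 3.25 and 8.53 in exosomes. It was higher in the exosomes of every cow, by 2.31, 2.30, 1.56 and 2.13 times, although the exosomes of cow 3 were below the sera of cows 2 and 4. On the log2 scale it was 1.62 ± 0.486 in sera and 2.65 ± 0.696 in exosomes, and the exosomes were higher by 1.04 (p = 0.0857 by the exact permutation test, 0.257 adjusted over the 3 ratios). As a paired comparison, the exact sign-flip test gave p = 0.125, which is the lowest p open to 4 pairs.

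MiR-142-5p exceeded miR-142-3p by 13.6 to 27.4 times in sera and by 19.9 to 41.5 times in exosomes. The 2 arms come from the same precursor, so the ratio shows how unequally they were retained and read. The log2 ratio was 4.41 ± 0.445 in sera and 4.76 ± 0.482 in exosomes, sera minus exosomes -0.35 (exact permutation test, p = 0.4; adjusted p = 0.4). In 3 of 4 cows the exosomes had the higher ratio (sign-flip test, exact p = 0.25). The difference was smaller than the SD of either sample type.

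The ratio of miR-146a to miR-146b was 4.17, 1.54, 1.98 and 1.76 in serum, from cow 1 to cow 4. In exosomes it was 21 in cow 1 (21 reads against 1, 95% counting interval 3.38 to 868), 1.6 in cow 2, 5.5 in cow 3 (11 reads against 2, interval 1.2 to 51.1) and 2.14 in cow 4. It was higher in the exosomes of every cow, and the log2 ratio was 1.12 ± 0.643 in sera and 2.16 ± 1.67 in exosomes. The difference, -1.04 as sera minus exosomes, was smaller than the SD among exosomes (exact permutation test, p = 0.257; adjusted p = 0.386; exact sign-flip test, p = 0.125). It was -0.29 without the exosomes of cow 1 and -0.61 without both libraries of that cow. MiR-146a and miR-146b are nearly identical in sequence, and how reads that match both were assigned is not given in the sources used here, so the split between them is uncertain.

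**Figure D3:**
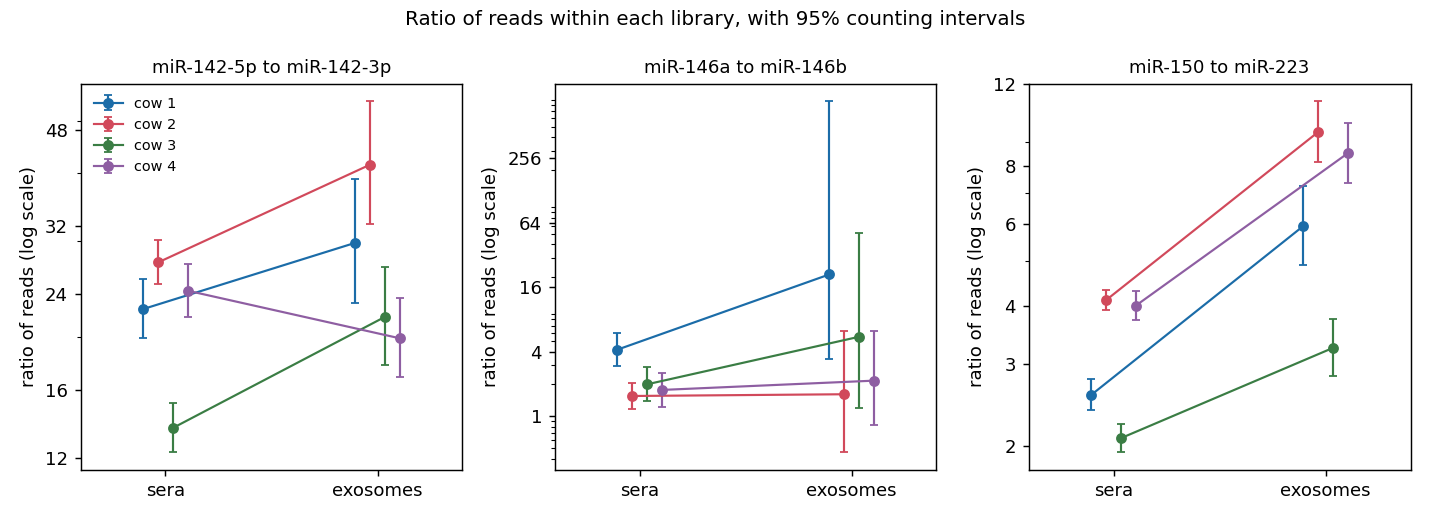
Ratio of reads of 2 members within each library (log scales), with 95% counting intervals and a line joining the libraries of 1 cow. MiR-150 to miR-223 was 1.56 to 2.31 times higher in exosomes in all 4 cows, while the interval of miR-146a to miR-146b in the exosomes of cow 1 spans 3.38 to 868 because miR-146b had 1 read.

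The members differed in how much they varied between cows. In sera the coefficient of variation (CV) was 10.3% for miR-142-5p, 19.9% for miR-150, 20.9% for miR-146b, 28.4% for miR-223, 33.0% for miR-142-3p, 42.0% for miR-155 and 58.9% for miR-146a. Counting alone would give a CV of 1.17% for miR-142-5p and at most 13.8% (miR-146b) among the members. Among the same 128 miRNAs the median CV was 23.3% in sera, and 118 of them varied less than miR-155. In exosomes the CV of the members was 22.3% to 85.3%, again with miR-146a highest, and for miR-146b the counting CV of 67.9% was above the observed 46.6%. Cow 1 was the highest of the 4 in miR-146a, miR-155 and miR-142-5p in both its serum and its exosomes. It was also the cow with the high miR-133a, whose part in these values was not tested.

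For each member, the 2 miRNAs most like it over the 8 libraries were sought among the 128 with at least 10 reads in every library, by Pearson's r of log2(RPM + 1). The 8 libraries come from 4 cows and share their sample type and depth, so r is a description. MiR-146a was most like miR-29a (r = 0.957) and miR-29c (0.952), and miR-146b most like miR-16a (0.913) and miR-106b (0.902). MiR-223 was most like miR-877 (0.951) and let-7g (0.929), miR-142-3p most like miR-151-5p (0.940) and miR-26a (0.910), and miR-155 most like miR-191 (0.918) and miR-22-3p (0.910). The highest r was lower for miR-142-5p and miR-150. For miR-142-5p the partners were miR-215 (0.797) and miR-133a (0.770), the miRNA that was high in cow 1, and for miR-150 they were miR-484 (0.777) and the red cell miRNA miR-451 (0.739). No member was among the 2 most like another member, but only 5 of the 7 could be. MiR-146a and miR-146b had fewer than 10 reads in some exosome libraries and were not candidates, so their likeness to the other members was not examined.

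Other blood cell miRNAs were read from the same fit, in lists chosen by name. Of 8 other white cell miRNAs (miR-342, miR-181a, miR-181b, miR-21-5p, miR-132, miR-23a, miR-27a-3p and miR-22-3p), 0 were called in either direction by limma (3 at an unadjusted p under 0.05, which held for 25.8% of the 365 miRNAs), 0 by edgeR and 0 by DESeq2. The median log2 FC of the list was 0.34, against 0.27 for the 7 members and 0.57 for all 365 miRNAs. With the block, limma called 1 of them, miR-132 (log2 FC of 2.62, FDR = 2.2e-05), whose fold rests on the pseudocount because the exosomes of cow 1 had 0 RPM. Without the limit on fold change, miR-23a, part of a cluster active in myeloid cells, had a limma FDR of 0.0198 with a log2 FC of 0.99, just under the limit. The most abundant of this list was miR-22-3p, whose sera averaged 120313 ± 20105 RPM and whose exosomes averaged 104125 ± 21798 RPM (log2 FC of 0.22, limma FDR = 0.661). The list, mainly miR-22-3p, took 14.7% to 19.7% of the reads of a serum and 11.2% to 18.5% of those of an exosome library. The share of the list was lower in the exosomes of every cow, as was the RPM of miR-22-3p alone.

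Of 7 platelet-abundant miRNAs (miR-126-3p, miR-191, miR-24-3p, miR-26a, miR-199a-3p, miR-197 and miR-103), 1 was called higher in sera by limma and 0 in exosomes. Over all 365 miRNAs these shares were 3.01% and 1.37%. The median log2 FC of the list was 0.72, and 6 of the 7 were positive. MiR-197 lay on the exosome side (log2 FC of -1.08, limma FDR = 0.196). The miRNA called was miR-24-3p, at 1697 ± 880 RPM in sera against 328 ± 104.1 RPM in exosomes (log2 FC of 2.30, FDR = 0.000621 by limma). The most abundant, miR-191, had 25096 ± 6260 and 22128 ± 5333 RPM (log2 FC of 0.18, limma FDR = 0.709). The list held 4.45% to 6.29% of the reads in sera and 3.18% to 4.72% in exosomes. MiR-223, which platelets also contain, had a log2 FC of 0.86, above the median of that list.

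Of 6 red cell miRNAs (miR-451, miR-486, miR-144, miR-16a, miR-16b and miR-92a), 2 were called higher in sera by limma and 0 in exosomes. Over all 365 miRNAs these shares were 3.01% and 1.37%. The 2 were miR-16a (log2 FC of 1.44, limma FDR = 0.00139) and miR-144 (log2 FC of 1.10, limma FDR = 0.0149). EdgeR called 1 of the list, with miR-144 inside the limit at a log2 FC of 0.91, and DESeq2 called 2. At an unadjusted p under 0.05 by limma were 5 of the 6, in both directions, against 25.8% of the 365 miRNAs. The log2 FC was positive for 3 of the 6, and miR-92a lay on the exosome side (log2 FC of -0.59, limma FDR = 0.132). The most abundant, miR-486, averaged 158802 ± 31862 RPM over the sera and 267558 ± 72036 RPM over the exosomes (log2 FC of -0.73, limma FDR = 0.149). The list, mainly miR-486 and miR-92a, took 22.9% to 32.5% of a serum's reads and 26.9% to 49.1% of those of exosomes, with more in the exosomes of every cow, and no miRNA of it was at 0 in all libraries of a sample type. RPM over miRNA reads is a share of the same total, so this share enters the fold changes of such RPM, and its part in them was not tested. It does not enter the ratios of members within a library. Of 8 solid tissue miRNAs, 1 (miR-200a, of epithelial cells) was higher in sera by limma, with a log2 FC of 1.22, and the list held 0.415% to 2.58% of the reads in sera and 0.333% to 2.84% in exosomes, with the highest values in cow 1. Its most abundant miRNA was the miR-133a described above.

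**Figure D4:**
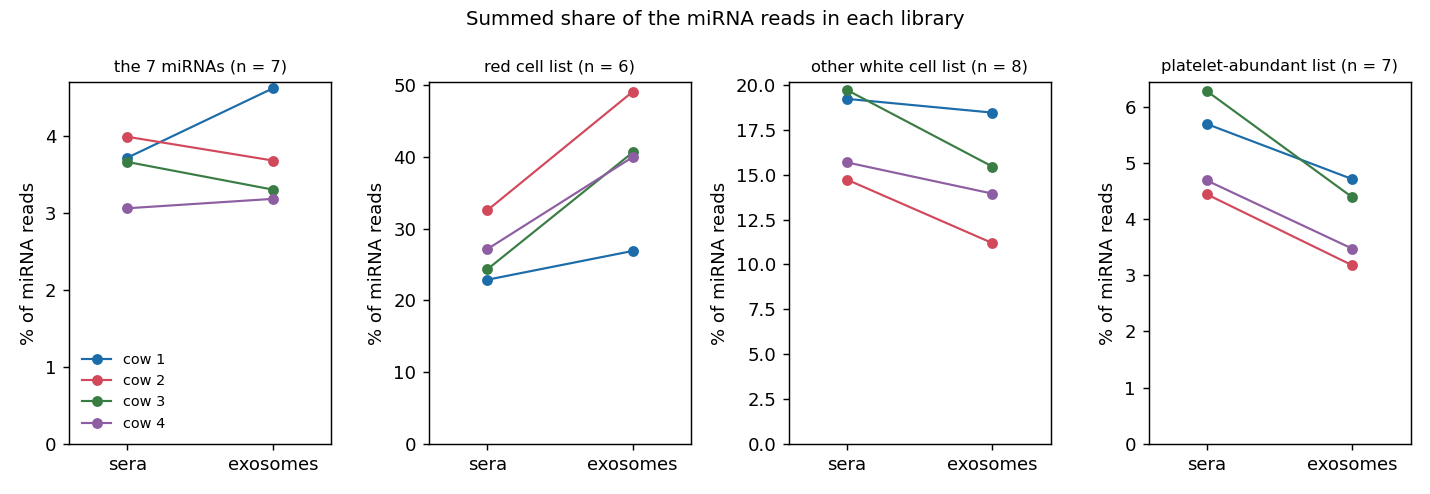
Summed share of the miRNA reads (%, axes from 0) of the 7 miRNAs and of 3 other lists in sera and exosomes, with a line joining the libraries of 1 cow. The 7 miRNAs stayed between 3.06% and 4.62% in all libraries, while the red cell list lay between 22.9% and 32.5% for sera and between 26.9% and 49.1% for exosomes and was higher in the exosomes of all 4 cows.

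By the RefSeq annotation of ARS-UCD2.0, the 7 miRNAs come from 6 genes, MIR142, MIR146A, MIR146B, MIR150, MIR155 and MIR223, all of which were found by symbol. MIR142 lies within the span of TSPOAP1 and MIR223 within that of VSIG4, whereas MIR146B lies next to CUEDC2 and MIR155 next to MRPL39. The study used another bovine assembly, so positions are not given.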

How the data were processed

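Small RNA was sequenced in 8 libraries, a serum and an exosome library for each of 4 cows. Reads were filtered by the authors with CASAVA 1.8, and sRNAbench was used to trim adaptors and to align reads over 15 nt to bovine miRBase 21. The authors deposited RPM per library. Group and cow were read from the titles, and by the study's methods the exosomes came from the sera of those cows. Whole reads were recovered from the step between low RPM values (100% of values whole within 0.1 read).

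The 7 miRNAs, the lists and the tests were chosen with earlier results of these data known. Named miRNAs were the 7 members, the 2 most like each, and, of each list, those past both thresholds and the most abundant. The values of miR-23a, miR-132, miR-92a, miR-197, miR-126-3p and miR-103 were added after they were seen. The test was limma (trend) on log2(RPM + 1), without a block. It replaced edgeR as used in the study because the authors deposited RPM, and edgeR and DESeq2 on recovered reads were alternatives. Over 128 miRNAs, deviations from group means correlated between the libraries of 1 cow (r = 0.740 to 0.860), so the cows were treated as paired in alternatives. Between different cows the mean r was -0.244, a value that centring on group means pushes to the negative side. Libraries of one group differed by more than counting noise. The tests by limma and edgeR were first tried on simulated data. Alternatives were pseudocounts of 0.1 and 10, filters, scaling, sequences in analysis (from the study's read table) as denominator, the block, and each library left out. Without the block, the p-values of limma, edgeR, DESeq2 and the permutation tests rest on the spread between libraries of a sample type. With the block and in the sign-flip test they rest on the spread of the differences within cows. In limma, edgeR and DESeq2 the spread is partly pooled over miRNAs. The versions were limma 3.58.1 (R 4.3.3), DESeq2 1.42.0, edgeR 4.0.16 and SciPy 1.17.1 (Python 3.11.15).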

Additional observations from a re-analysis of the deposited data

Results flagged for a closer look

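In 22 groups of 4 libraries (the 7 miRNAs, the 3 ratios and the sum in each sample type), the gap between the lowest or highest library and its neighbour was compared with Dixon's 95% critical value for 4 samples, which chance exceeds in about 1 in 20 groups. It was exceeded in 3 groups. MiR-142-3p in the exosomes of cow 2 was low, at 483 RPM. MiR-146a in the exosomes of cow 1 was high, at 346 RPM, and rested on 21 reads. MiR-150 in the serum of cow 2 was high, at 13042 RPM.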

How the results depend on the processing

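The number of the 7 members past both thresholds was 1 by limma. It was 0 with at least 10 reads required in every library (miR-146a and miR-146b were then not tested, and 1 member had an unadjusted p under 0.05, against 40.6% of the 128 miRNAs) and 0 with RPM over the sequences in analysis. With the replicate block it was 2 by limma and 2 by edgeR, and leaving out each library gave 0 to 2. Without the serum of cow 2 or of cow 3 it was 0, with 3 members each at an unadjusted p under 0.05 by limma. Of all miRNAs, 3.57% and 3.44% were then called, and 25% and 18.3% were at an unadjusted p under 0.05. Without both libraries of cow 1, an alternative chosen after seeing the data, it was 1. Over all miRNAs, calls numbered 16 by limma, 35 with the block, 26 by edgeR with the block and 6 over the sequences in analysis. The share of calls that were higher in sera was 68.8% by limma, 42.9% by edgeR with TMM, 18.8% by DESeq2, 82.9% by limma with the block and 0% over the sequences in analysis, where the median log2 FC moved by -0.70. The log2 FC reversed for miR-142-3p (-0.061 by DESeq2, -0.44 over the sequences in analysis), for miR-155 (-0.029 and -0.43 in the same order) and for miR-142-5p (-0.16 to 0.075 with 1 library left out, the latter without the exosomes of cow 1, and 0.030 without both of cow 1). For the summed level of the 7 members, the log2 of sera over exosomes was -0.69 over the sequences in analysis, a shift set by that denominator, and -0.10 to 0.09 with 1 library left out. For the reversals by DESeq2 and those without libraries of cow 1, the cause was not tested. The 3 ratios kept their direction in 11 alternatives each. The sign-flip test and the comparison without cow 1 were too small to pass, so their p-values say nothing about stability. Apart from miR-146a, the block changed no call of a member. Depth limits miR-146b most, with 1 to 7 reads per exosome library.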
